A study of Mus musculus with 3 samples.

Results

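Col3a1, Col5a1 and Col5a2 encode chains of the fibrillar collagens III and V, and they are the 3 genes described here, chosen by name from 3264 genes that had a value in every cell. They were measured in a pooled single-cell matrix of mouse mitral valves with 16383 cells. The 3 samples listed with the matrix are mitral valves of mgR mice (B6.129-Fbn1tm2Rmz/J), which carry a hypomorphic allele of Fbn1, the gene of fibrillin-1, a microfibril protein of connective tissue, and which were 12 weeks of age. The study set untreated and rapamycin-treated mgR mice beside wild-type littermates (mgR mice were homozygous), but the barcodes name no mouse, genotype, treatment or library. The matrix was therefore handled as 1 sample, with no comparison of genotypes and no test, and it is not known which cells are from mgR mice. The study describes both whole cells, dissociated with enzymes and sorted for viability, and nuclei, and every barcode is called a cell here. In the labels, RNA was captured in droplets, and each molecule was counted by its unique molecular identifier (UMI).

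Fibrillar collagens give the valve leaflet its tensile strength. Collagen III is a trimer of identical Col3a1 chains and is common in distensible tissues, where it lies in fibrils beside collagen I. Most collagen V combines Col5a1 with Col5a2 chains, is a minor part of the fibril, and sets where collagen fibrils start and how wide they grow. Inherited defects of COL3A1 cause vascular Ehlers-Danlos syndrome, and those of COL5A1 or COL5A2 cause the classical form. In valves, fibroblasts of the leaflet interior are known as the main source of these chains, and the endothelium covers the leaflet surface.

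The chains share a long run of glycine-X-Y triplets, in which glycine opens each triplet so that the chains can wind into a triple helix. In GENCODE M21 (GRCm38), the transcript of each gene with the most coding bases encodes 1464 residues for Col3a1, 1838 for Col5a1 and 1497 for Col5a2. The longest run without a break spans 344 triplets in Col3a1 (residues 164 to 1195), 338 in Col5a1 (559 to 1572) and 339 in Col5a2 (211 to 1227). These runs make up 70.5%, 55.2% and 67.9% of the chains, so the helix is nearly equal in length while Col5a1 has a much longer stretch before it. The first 60 coding bases of each run are shown, since they let the repeat be read directly, with the first 2 bases of the glycine codon that opens each triplet in capitals. Glycine codons at the other places of a triplet are in lower case.
Col3a1: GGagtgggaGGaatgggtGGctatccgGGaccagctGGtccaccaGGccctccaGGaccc
Col5a1: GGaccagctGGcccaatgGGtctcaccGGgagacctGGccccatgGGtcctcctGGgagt
Col5a2: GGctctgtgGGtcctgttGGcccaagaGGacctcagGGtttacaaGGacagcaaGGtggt

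Col3a1 (ENSMUSG00000026043.18) lies on the plus strand at chr1:45311538-45349706 in GRCm38. Col5a2 (ENSMUSG00000026042.16) lies on the minus strand at chr1:45374321-45503282, so that the ends of both genes face each other across 24614 bases with 0 other annotated genes between. Col5a1 (ENSMUSG00000026837.15) is on another chromosome, on the plus strand at chr2:27886425-28039514. Col3a1 has 51 exons over 38.2 kb, Col5a2 has 54 over 129 kb, and Col5a1 has 66 over 153 kb.

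RefSeq promoters (GRCm38.p6) were matched for only 2 of the 3 genes, Col3a1 and Col5a1, and the 250 bases before each start are shown. Any bearing of these bases on the levels below was not tested. Capitals mark the letters TATAAA or GGGCGG on either strand.
Col3a1, chr1:45311288-45311537, plus strand: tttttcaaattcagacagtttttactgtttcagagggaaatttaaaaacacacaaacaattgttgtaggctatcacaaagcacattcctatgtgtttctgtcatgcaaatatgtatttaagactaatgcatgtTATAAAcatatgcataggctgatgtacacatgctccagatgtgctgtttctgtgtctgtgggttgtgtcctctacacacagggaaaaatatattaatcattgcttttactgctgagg
Col5a1, chr2:27886175-27886424, plus strand: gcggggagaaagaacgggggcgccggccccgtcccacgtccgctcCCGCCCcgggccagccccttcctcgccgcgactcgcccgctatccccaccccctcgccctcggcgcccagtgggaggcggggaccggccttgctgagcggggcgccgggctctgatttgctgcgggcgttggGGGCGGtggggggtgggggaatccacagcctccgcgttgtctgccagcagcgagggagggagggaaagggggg
The Col3a1 window had a GC content of 35.2% and 0 CpG dinucleotides, and the Col5a1 window had 76.4% and 28. Over all 32851 promoters of this length the medians were 52.4% and 6. The letters TATAAA occurred 1 time in the Col3a1 window and in 12.4% of all promoters. The GC box letters GGGCGG occurred 1 time on each strand of the Col5a1 window and in 32.7% of all promoters. The letters CCAAT, found in 33.8% of all promoters, were in neither window. The motifs do not overlap, and a match of letters is a description only.

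The depth of a cell ranged from 503 to 23127 UMIs (median 5349). Listed genes lie on chromosomes 1, 2 and 3 and took a median share of 15.7%. By the alphabetical order of their barcodes the cells fall into 2 runs, the first of 14222 cells (median 5154 UMIs) and the second of 2161 (6918 UMIs), which share 11 barcodes. Levels are summed UMIs of a gene per 10000 of all UMIs of the same cells, with exact Poisson limits (95%). For shares, each cell was thinned to 2000 UMIs, and the limits are exact binomial ones. All intervals cover counting error only. Fbn1 itself was at 4.64 per 10000 in the Prrx1/Dpt cells defined next and at 2.02 in the Egfl7 cells, which checks no label because no cell is marked as wild-type.

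The matrix is as wide as common spreadsheet programs allow, so it may hold only part of the cells, and shares of cells and the size of the second run refer to the cells analysed here. Cells were grouped without any collagen gene. The Prrx1/Dpt cells had a UMI of Prrx1, a mesenchymal transcription factor, or of Dpt, a matrix protein that binds collagen, and none of Egfl7. They numbered 3817, or 23.3% of cells. The Egfl7 cells had a UMI of Egfl7, a protein secreted by endothelium, without Prrx1 and Dpt, and numbered 8734 (53.3%). The 441 Ptprc cells had a UMI of Ptprc, the leukocyte antigen CD45, and none of the other 3 genes. A further 653 cells had markers of both the first groups and a median of 7678 UMIs, and 2738 had none of the 4 genes. Markers that did not set the groups were checked next: 5 of 5 further fibroblast markers (Ddr2, Fap, Fmod, Scn7a and Sfrp2) were highest in Prrx1/Dpt cells, 5 of 5 endothelial markers in Egfl7 cells, and 7 of 7 leukocyte markers in Ptprc cells. The summed level of the fibroblast markers was 12.7 per 10000 in Prrx1/Dpt cells, 0.183 in Egfl7 cells and 0.893 in Ptprc cells. That sum counts Prrx1 (3.33) and Dpt (2.81), which by definition are at 0 in Egfl7 and Ptprc cells, so it is partly fixed by the grouping. Pdgfra, Dcn and Lum among the fibroblast markers, and Cdh5, Vwf, Pecam1, Emcn and S1pr1 among the endothelial ones, were not analysed here.

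All 3 genes were highest in Prrx1/Dpt cells, but the step down to the Egfl7 cells differed greatly between them. The level of Col3a1 was 4.85 per 10000 (interval 4.77 to 4.94) in Prrx1/Dpt cells and 0.690 (0.668 to 0.713) in Egfl7 cells, a ratio of 7.04 (6.78 to 7.31). Col5a1 stood at 3.69 (3.62 to 3.77) and 0.288 (0.274 to 0.303), a ratio of 12.8 (12.1 to 13.5). Col5a2 was at 9.56 (9.44 to 9.68) and 2.81 (2.76 to 2.85), a ratio of only 3.40 (3.33 to 3.48). The intervals of the 3 ratios do not overlap, so Col5a1 was the most concentrated in Prrx1/Dpt cells and Col5a2 the least. All 3 members passed 2-fold, as did 19.4% of 2845 genes with at least 20 UMIs over both groups, and 0 of the 3 were among the 15.0% at least 2-fold lower. Col5a1 had the 156th highest ratio of these genes, Col3a1 the 217th and Col5a2 the 358th. Within the first barcode run the ratios were 7.12, 12.5 and 3.36, and within the second 4.74, 11.4 and 3.13, in the same order. Levels themselves were lower in the second run: in its Prrx1/Dpt cells Col3a1 was at 2.72, Col5a1 at 2.24 and Col5a2 at 7.15, against 5.11, 3.86 and 9.85 in the first. The second run made up 9.06% of Prrx1/Dpt cells and 15.2% of Egfl7 cells, so ratios over both runs together also mix runs. Those of Col5a1 and Col5a2 lie above the ratios within either run. What the runs stand for was not tested.

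**Figure D1:**
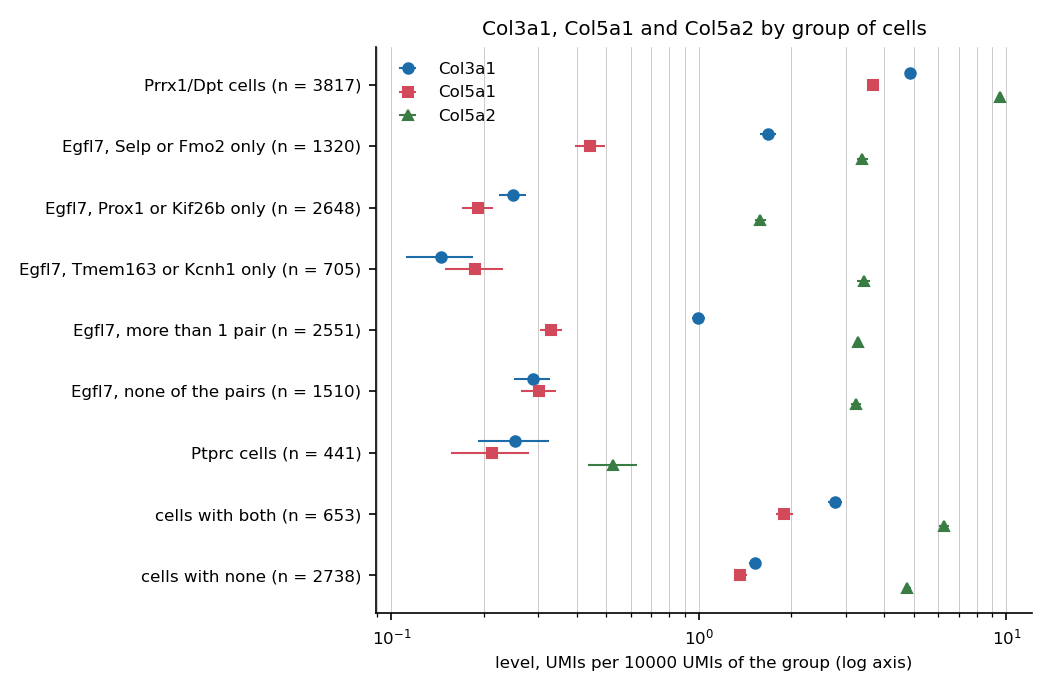
Level of each gene (UMIs per 10000, log axis) in the 9 groups of cells that do not overlap, with 95% exact Poisson intervals. Col5a2 stays between 1.59 and 3.43 over the 5 groups of Egfl7 cells, while Col3a1 spans 0.144 to 1.68 there.

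In Ptprc cells the 3 genes were also counted, at 0.252 (0.191 to 0.326) for Col3a1, 0.212 (0.156 to 0.281) for Col5a1 and 0.526 (0.436 to 0.629) for Col5a2. These levels rest on 57, 48 and 119 UMIs. Prrx1/Dpt cells exceeded them by nearly the same factor for each gene: 19.3 (14.9 to 25.5), 17.4 (13.1 to 23.6) and 18.2 (15.2 to 22.0). In the first barcode run the factors were 15.0, 15.4 and 15.8, and in the second, where Ptprc cells had 4, 9 and 22 UMIs, they were 48.3, 17.7 and 23.1. Over both runs the Ptprc cells thus held the 3 transcripts in the proportions of the Prrx1/Dpt cells at a much lower level. Their levels are used below as a reference, called the background. It is not a floor, since the Tmem163/Kcnh1 cells described below had less Col3a1, at 0.144. A level at or below it therefore does not show that a gene is silent. The summed fibroblast markers of the Ptprc cells stood at 0.893, of which Fap made up 0.694, and the source of these UMIs was not tested. Thinned to equal depth, 4.62% of 390 Ptprc cells had a Col3a1 UMI (2.76 to 7.20), 2.82% a Col5a1 UMI (1.42 to 4.99) and 6.41% a Col5a2 UMI (4.19 to 9.32). The shares in Prrx1/Dpt cells were 49.2%, 43.2% and 72.7%, far above this background for all 3 genes. In Egfl7 cells they were 9.36% (8.74 to 10.0) for Col3a1, 4.91% (4.46 to 5.40) for Col5a1 and 34.2% (33.2 to 35.2) for Col5a2. The interval of Col5a1 in Egfl7 cells overlaps that in Ptprc cells, and its level was 1.36 times theirs (1.02 to 1.85), whereas the level of Col5a2 was 5.34 times theirs (4.46 to 6.45). Median depths before thinning were 5810 UMIs in Prrx1/Dpt cells, 5354 in Egfl7 cells and 4836 in Ptprc cells.

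The Egfl7 cells were split by detection of Selp or Fmo2, Prox1 or Kif26b, and Tmem163 or Kcnh1. Selp encodes P-selectin, which captures leukocytes on activated endothelium, Prox1 is a transcription factor of lymphatic and valve endothelium, and Kcnh1 is a potassium channel. Each of the 3 genes had its own profile over these cells.

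Col3a1 varied most. It stood at 1.68 per 10000 (1.58 to 1.78) in the 1320 cells with Selp or Fmo2 alone, at 0.249 (0.224 to 0.275) in the 2648 cells with Prox1 or Kif26b alone, and at 0.144 (0.112 to 0.184) in the 705 cells with Tmem163 or Kcnh1 alone. Selp/Fmo2 cells were thus 6.74-fold (6.004 to 7.59) above Prox1/Kif26b cells and 11.6-fold (9.04 to 15.1) above Tmem163/Kcnh1 cells, and 6.66-fold (5.11 to 8.85) above Ptprc cells. Prox1/Kif26b cells did not differ from Ptprc cells beyond counting error (ratio 0.988, 0.746 to 1.33), and Tmem163/Kcnh1 cells were below them (0.574, 0.396 to 0.834). In the second run, with 4 Col3a1 UMIs in Ptprc cells and 4 in Tmem163/Kcnh1 cells, these ratios were 3.65 (1.37 to 13.7) and 2.81 (0.524 to 15.1). The shares followed the same order, at 21.6% (19.3 to 24.0), 3.35% (2.68 to 4.14) and 2.51% (1.47 to 3.98). The summed level of the fibroblast markers ran in the same direction, at 0.225 in Selp/Fmo2 cells and 0.149 in each of the other pair of groups. In Prrx1/Dpt cells it was 12.7. Single markers differed. Against Prox1/Kif26b cells, Ddr2 was 2.85-fold (1.89 to 4.33) higher in Selp/Fmo2 cells. Ddr2 was also 2.25-fold (1.36 to 3.68) higher in Tmem163/Kcnh1 cells, which had the least Col3a1. Fap went the other way in Selp/Fmo2 cells, at 0.725 of the Prox1/Kif26b level, with an interval that just includes no difference. Fmod was at 0.00717 in Selp/Fmo2 cells and 0.00847 in Prox1/Kif26b cells. The part of these markers in the Col3a1 level was not tested.

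Col5a1 was low throughout the Egfl7 cells. Its level was 0.443 (0.395 to 0.495) in Selp/Fmo2 cells, 0.191 (0.170 to 0.215) in Prox1/Kif26b cells and 0.187 (0.149 to 0.231) in Tmem163/Kcnh1 cells. The last pair of intervals overlap each other and that of the Ptprc cells, and Selp/Fmo2 cells were 2.09-fold (1.54 to 2.89) above Ptprc cells.

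Col5a2 behaved otherwise. It was at 3.43 (3.26 to 3.61) in Tmem163/Kcnh1 cells and at 3.40 (3.26 to 3.54) in Selp/Fmo2 cells, which could not be told apart (ratio 0.990 of the second to the first, 0.928 to 1.06), although in the second run that ratio was 1.40 (1.06 to 1.90). It was lower in Prox1/Kif26b cells, at 1.59 (1.52 to 1.65). All 3 levels lie above the Ptprc cells, by 6.53-fold (5.41 to 7.93), 6.46-fold (5.37 to 7.83) and 3.01-fold (2.51 to 3.65). A Col5a2 UMI was found in 45.6% (41.8 to 49.4) of thinned Tmem163/Kcnh1 cells, the cells in which Col3a1 and Col5a1 were at or below the Ptprc background. Of 678 such cells, 291, or 42.9%, had Col5a2 without Col3a1 or Col5a1, against 43.1% if the genes were detected independently. In the other Egfl7 groups this share was 31.7% with none of the pairs and 31.3% with more than 1 pair. It was 26.6% in Selp/Fmo2 cells and 19.5% in Prox1/Kif26b cells. The chain that pairs with Col5a1 in collagen V was thus counted in Tmem163/Kcnh1 cells with almost no Col5a1 transcript at this depth.

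Against Prox1/Kif26b cells, Selp/Fmo2 cells had all 3 members at least 2-fold higher, beside 7.24% of 2389 genes, and 0 of 3 at least 2-fold lower, beside 5.40%. In the same comparison Tmem163/Kcnh1 cells had 1 of 3, Col5a2, at least 2-fold higher (2.17-fold, 2.03 to 2.31), beside 7.76% of 2333 genes, and 0 at least 2-fold lower, beside 7.59%. Both comparisons share the Prox1/Kif26b cells. Within the first barcode run, Selp/Fmo2 cells were 6.74-fold above Prox1/Kif26b cells in Col3a1 and within the second 6.11-fold. For Col5a2 in Tmem163/Kcnh1 cells the ratios to Prox1/Kif26b cells were 2.05 and 1.83, although only 33 Tmem163/Kcnh1 cells belong to the second run. Both are below the 2.17 over both runs together, and that of the second run does not reach 2-fold. The second run made up 4.68% of Tmem163/Kcnh1 cells and 19.0% of Prox1/Kif26b cells, so the ratio over both runs also mixes runs.

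Finer splits, added after these values were seen, showed that the marker pairs are not uniform. Cells with both Selp and Fmo2 had more Col3a1, at 2.52 (2.30 to 2.75), than cells with Fmo2 and not Selp, at 1.45 (1.33 to 1.56), or with Selp and not Fmo2, at 0.685 (0.510 to 0.900). Col3a1 was at 0.430 (0.381 to 0.483) in cells with Prox1 and not Kif26b, above the interval of the Ptprc cells, and at 0.144 (0.0938 to 0.210) with Kif26b and not Prox1 and 0.103 (0.0802 to 0.130) with both, so the level of the Prox1/Kif26b cells as a whole, near that of Ptprc cells, averages over unlike cells. Cells with both Prox1 and Kif26b had the lowest Col5a2 of all these splits, at 0.908 (0.839 to 0.982), against 2.39 (2.27 to 2.51) with Prox1 and not Kif26b. Even that level was above Ptprc cells. Among cells with markers of more than 1 pair, Col3a1 was high with Selp/Fmo2 and Prox1/Kif26b together, at 1.53 (1.45 to 1.62), and low with Prox1/Kif26b and Tmem163/Kcnh1 together, at 0.110 (0.0796 to 0.149). Col5a2 was at 3.06 and 3.09 in these cells.

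Ordered over all 9 groups, Col3a1 ran from Prrx1/Dpt cells (4.85) through cells with both kinds of marker (2.78), Selp/Fmo2 cells (1.68), cells with none of the 4 genes (1.52), Egfl7 cells with more than 1 pair (0.996), Egfl7 cells with none of the pairs (0.288), Ptprc cells (0.252) and Prox1/Kif26b cells (0.249) to Tmem163/Kcnh1 cells (0.144). Intervals overlap between Selp/Fmo2 cells and cells with none of the 4 genes, and among the Egfl7 cells with none of the pairs, the Ptprc cells and the Prox1/Kif26b cells. For Col5a1 the order began in the same way, at 3.69, 1.90 and then 1.37 in cells with none of the 4 genes, and every Egfl7 group lay at 0.443 or lower. For Col5a2 the first places were 9.56, 6.27 and 4.75, and the next 4 groups, all Egfl7 cells, lay between 3.24 and 3.43. The intervals of these 4 groups overlap with their neighbours, Prox1/Kif26b cells followed at 1.59, and Ptprc cells were last at 0.526.

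Ratios between the genes within a group remove gene length when groups are compared. Col5a1 had 0.386 UMIs per Col5a2 UMI (0.377 to 0.396) in Prrx1/Dpt cells and 0.103 (0.0972 to 0.108) in Egfl7 cells, a 3.76-fold difference (3.55 to 3.99). For Col3a1 per Col5a2 UMI the values were 0.508 (0.497 to 0.519) and 0.246 (0.237 to 0.255), a 2.07-fold difference (1.98 to 2.16). Ptprc cells had 0.403 (0.282 to 0.568) and 0.479 (0.343 to 0.662), which overlap the Prrx1/Dpt values and lie above those of all 5 Egfl7 groups in the first ratio. Selp/Fmo2 cells had a Col3a1 to Col5a2 ratio of 0.494 (0.460 to 0.530), close to that of Prrx1/Dpt cells, but a Col5a1 to Col5a2 ratio of 0.130 (0.115 to 0.147). Both ratios were lowest in Tmem163/Kcnh1 cells, at 0.0421 (0.0323 to 0.0540) and 0.0544 (0.0431 to 0.0678).

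**Figure D2:**
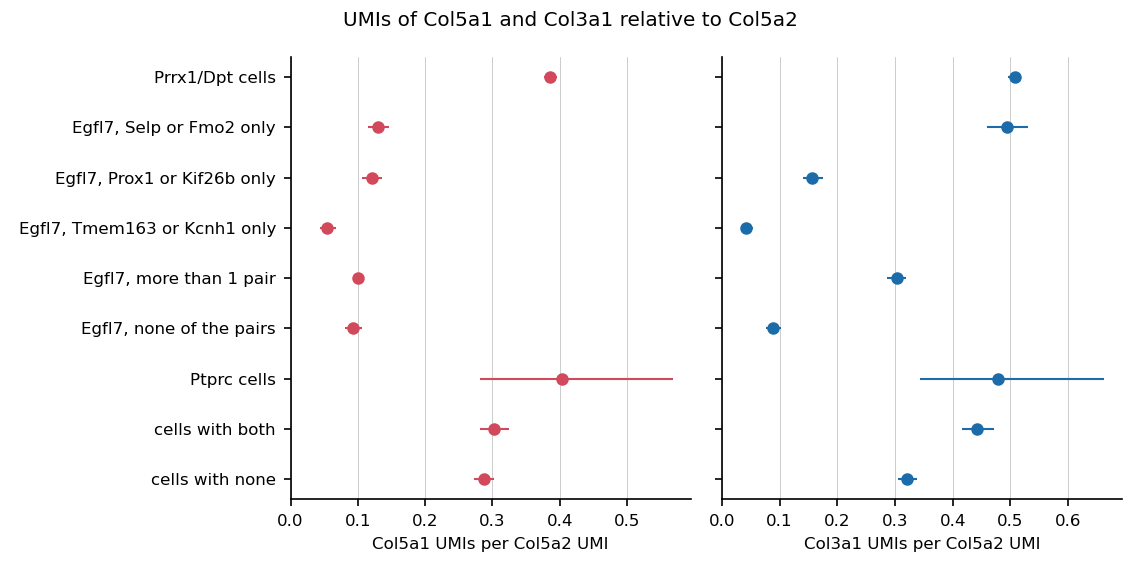
UMIs of Col5a1 (left) and Col3a1 (right) per UMI of Col5a2 in each group, with 95% intervals from exact binomial limits. In the left panel the 5 groups of Egfl7 cells lie between 0.0544 and 0.130, below the other groups, and in the right panel Selp/Fmo2 cells lie at 0.494 beside Prrx1/Dpt cells at 0.508.

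Within the Prrx1/Dpt cells the genes parted again. The 2021 cells with Prg4, which encodes the lubricant proteoglycan lubricin, or Fmod, a proteoglycan that binds collagen fibrils, and without Scn7a or Sfrp2 had Col3a1 at 4.22 per 10000 (4.10 to 4.33) and Col5a2 at 11.2 (11.0 to 11.3). The 542 cells with Scn7a, a sodium channel, or Sfrp2, a secreted Wnt modulator, and without Prg4 or Fmod had more Col3a1, at 7.38 (7.11 to 7.67), and less Col5a2, at 6.32 (6.06 to 6.58). The Scn7a/Sfrp2 cells were thus 1.75-fold (1.67 to 1.83) higher in Col3a1 and at 0.566 (0.542 to 0.592) of the Prg4/Fmod level in Col5a2. Col5a1 differed less, at 3.37 (3.19 to 3.57) against 4.14 (4.03 to 4.25), a ratio of 0.816 (0.766 to 0.868). Neither direction reached 2-fold for any of the 3 members, beside 6.61% of 2419 genes at least 2-fold higher and 7.44% at least 2-fold lower. By this ratio 8.39% of genes lay above Col3a1, and 90.2% lay above Col5a2. In the first barcode run the ratios of Col3a1 and Col5a2 were 1.87 and 0.579, and in the second 1.46 and 0.567. That of Col5a1 was 0.842 and 0.934, both above the 0.816 over both runs together, and in the second run its interval (0.754 to 1.15) includes no difference. The second run made up 6.63% of Prg4/Fmod cells and 14.4% of Scn7a/Sfrp2 cells.

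Cells with markers of both pairs (376 cells) combined a high Col3a1 of 6.79 (6.49 to 7.097) with a high Col5a2 of 10.6 (10.2 to 11.0), and the 878 cells with neither pair were low in Col3a1 (3.51) and Col5a1 (2.44), with Col5a2 at 7.02. Median depths were 5933 UMIs in Prg4/Fmod cells, 6183 in Scn7a/Sfrp2 cells, 6692 with both pairs and 4944 with neither. By the markers that set the group, cells with Prrx1 and not Dpt had more Col5a1 and Col5a2 than cells with Dpt and not Prrx1, 1.49-fold (1.41 to 1.59) and 1.38-fold (1.33 to 1.43), while Col3a1 differed by 1.12-fold (1.06 to 1.19). In the second barcode run the Col5a1 ratio was 1.05 (0.793 to 1.39) and the Col3a1 ratio 0.852 (0.646 to 1.12), so only the Col5a2 ratio, 1.22 (1.04 to 1.42), stayed clear of 1 in both runs.

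**Figure D3:**
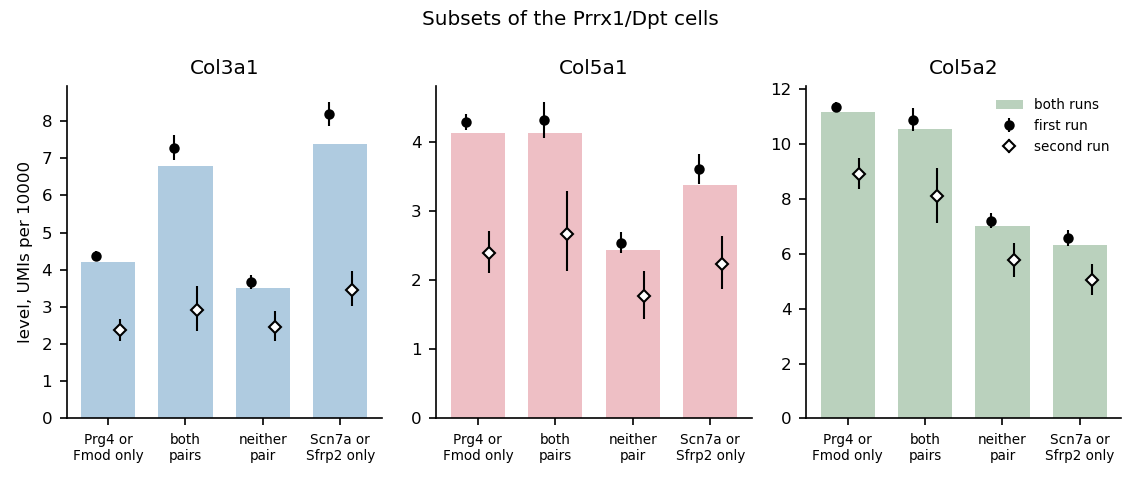
Level of each gene (UMIs per 10000) in 4 subsets of the Prrx1/Dpt cells. Bars are both barcode runs together, and points are the first (filled) and second (open) run with 95% exact Poisson intervals: Col3a1 is at 4.22 in Prg4/Fmod cells and 7.38 in Scn7a/Sfrp2 cells, while Col5a2 is at 11.2 and 6.32, and the second run lies lower throughout.

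Most Prrx1/Dpt cells carried some of these transcripts, and the share with all 3 depended on depth: it was 18.0% at 2000 UMIs a cell, 37.9% at 4000 and 50.3% without thinning. With each cell thinned to 2000 UMIs, 655 of 3648 Prrx1/Dpt cells, or 18.0% (16.7 to 19.2), had UMIs of all 3 genes, against 15.4% if the genes were detected independently of each other. None of the 3 was found in 9.54% (8.61 to 10.5), against 7.89%. Col5a2 was the only one found in 20.7% of cells, Col3a1 with Col5a2 in 18.9% and Col5a1 with Col5a2 in 15.1%, while Col3a1 with Col5a1 and without Col5a2 was found in 4.63% (3.97 to 5.37), against 5.79%. Detection was thus linked only weakly. Col5a1 was found in 45.5% (43.6 to 47.4) of cells with Col5a2 and in 36.9% (33.9 to 40.0) of cells without it. In the second run these shares were 33.3% and 34.5%, so the step was seen in the first run only. Col5a1 was found in 46.0% (43.6 to 48.3) of cells with Col3a1 and in 40.5% (38.2 to 42.8) without. This turned in the second run, at 29.6% (21.4 to 38.8) with and 35.9% (29.6 to 42.5) without, and in Scn7a/Sfrp2 cells, at 40.2% (35.0 to 45.6) with and 47.2% (39.8 to 54.8) without, with overlapping intervals in both. Col5a2 was found in 75.0% (72.9 to 76.9) of cells with Col3a1 and in 70.5% (68.4 to 72.6) without. That step kept its direction in the second run, at 71.3% (62.1 to 79.4) and 61.4% (54.7 to 67.9), with overlapping intervals. The first run gave 19.1% of cells with all 3 genes, against 16.4% if independent, and the second 6.80% (4.36 to 10.0), against 7.44%, so the excess was not seen in the 338 cells of the second run.

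In Egfl7 cells co-detection was rare: 32 of 8181 thinned cells (0.391%, 0.268 to 0.552) had all 3 genes, against 0.157% if independent, and 58.4% had none. That independent share ignores the differences in level between the Egfl7 groups. Within Selp/Fmo2 cells the shares were 0.574% and 0.522%, from 7 cells. They were 0.561% and 0.331% with more than 1 pair (14 cells), and 0.458% and 0.0960% with none of the pairs (6 cells). Prox1/Kif26b cells had 0.161% and 0.0252% (4 cells), and Tmem163/Kcnh1 cells 0.147% and 0.0337% (1 cell). Col5a2 alone was found in 28.1% (27.1 to 29.0). Cells with Col3a1 had Col5a2 in 45.7% (42.1 to 49.3) and cells without Col3a1 in 33.0% (31.9 to 34.1). Within the Selp/Fmo2 cells alone, Col5a1 was found in 6.46% (3.81 to 10.2) of cells with Col3a1 and in 6.27% (4.82 to 7.997) without, which could not be told apart at this depth. There, Col5a2 was found in 45.6% (39.5 to 51.9) of cells with Col3a1 and 36.4% (33.3 to 39.5) of cells without.

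**Figure D4:**
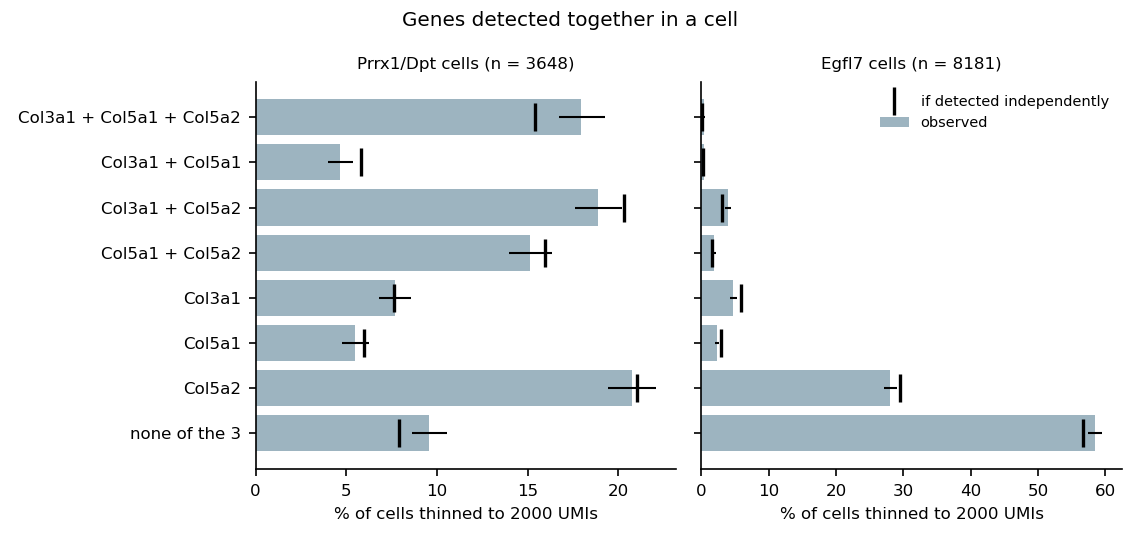
Share of thinned cells with each combination of the 3 genes in Prrx1/Dpt cells (left) and Egfl7 cells (right); a row names the genes found and no others. Bars are observed shares with 95% exact binomial intervals and black ticks the share that independent detection would give. In Prrx1/Dpt cells the bar for all 3 genes (18.0%) lies beyond its tick (15.4%).

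Counts per cell, before thinning, were spread widely. In Prrx1/Dpt cells a cell had a median of 2 Col3a1 UMIs and at most 77, a median of 1 Col5a1 UMI and at most 45, and a median of 4 Col5a2 UMIs and at most 96. The tenth of Prrx1/Dpt cells with the most UMIs of a gene held 43.3% of its UMIs for Col3a1, 41.0% for Col5a1 and 38.4% for Col5a2. In Egfl7 cells the median was 0, 0 and 1 UMI. There 2.12% of cells had 5 or more Col3a1 UMIs, with a maximum of 31, but only 0.240% had 5 or more of Col5a1, with a maximum of 10, and 11.0% had 5 or more of Col5a2, with a maximum of 53.

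Other genes of collagen biology were compared between the same groups, where 19.4% of all genes tested were at least 2-fold higher in Prrx1/Dpt cells and 15.0% at least 2-fold lower. With 5 to 7 genes a list, the counts are descriptions only. Of 17 further collagen chains listed, 7 are in the matrix and 6 had enough UMIs in Prrx1/Dpt and Egfl7 cells. Of these 6, 2 were at least 2-fold higher in Prrx1/Dpt cells: Col9a1, a chain of a collagen that coats fibrils, at 77.2-fold (42.7 to 156) and Col6a3, a chain of the microfibrillar collagen VI, at 16.8-fold (15.9 to 17.8). Col4a4, a basement membrane chain, was lower, at 0.371 (0.355 to 0.387), and its partner Col4a3 was at 0.619. The median over the 6 was 1.04, beside 1.06 over all genes tested.

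Of 6 genes of procollagen folding and export with enough UMIs, 1 was at least 2-fold higher in Prrx1/Dpt cells and 2 at least 2-fold lower, beside 19.4% and 15.0% of all genes. The gene that was higher is Sec16b, a protein of endoplasmic reticulum exit sites, at 44.7-fold (37.1 to 54.3). Pdia3, a disulfide isomerase, and Creb3l1, a transcription factor known to promote collagen expression, were lower, at 0.403 and 0.369, and Mia3, which loads procollagen into export vesicles, was at 0.995 (0.953 to 1.04). The median was 0.889, beside 1.06 over all genes. Among 7 fibril partners, leaving out Dpt because it set the group, 4 were at least 2-fold higher: Fmod (26.2-fold), Thbs1 (8.56-fold), Prelp (2.78-fold) and Thbs3 (2.10-fold). Fn1, fibronectin, on which collagen fibrils are assembled, was at 0.0871 (0.0814 to 0.0931) and Ecm1 at 0.215, both higher in Egfl7 cells, and Postn, periostin, was at 1.31. The median was 2.10. Of 5 genes of collagen receptors and turnover, 3 were higher: Ddr2, a receptor kinase activated by fibrillar collagen, at 36.5-fold (32.6 to 41.0), the protease Fap at 29.1-fold, and the collagen-binding integrin subunit Itga10 at 11.6-fold. Ctsk, cathepsin K, which degrades collagen, was at 0.413, and the median was 11.6. Ddr2, Fap and Fmod were also among the fibroblast markers checked above, so their ratios are not separate observations.

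**Figure D5:**
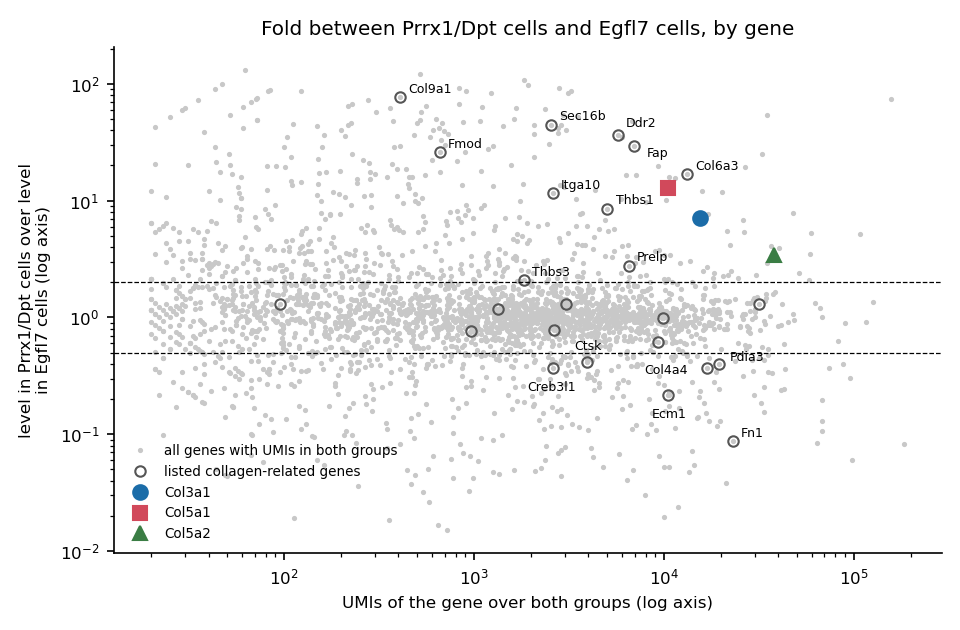
Ratio of the level in Prrx1/Dpt cells to that in Egfl7 cells (log axis) against the UMIs of the gene over both groups (log axis), for genes with UMIs in both groups and at least 20 in all. Dashed lines mark 2-fold in each direction, and the 3 members lie above the upper line at 3.40 (Col5a2), 7.04 (Col3a1) and 12.8 (Col5a1).

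Between the Egfl7 groups, Col6a3 was the listed chain that differed most, at 10.0-fold (8.25 to 12.3) higher in Selp/Fmo2 cells than in Prox1/Kif26b cells, beside 6.74-fold for Col3a1. Col4a3 was 2.22-fold (2.07 to 2.38) higher. Those were 2 of 4 chains with enough UMIs, with a median of 1.97 beside 1.01 over all genes. Postn went the other way, at 0.156 (0.146 to 0.167), and so did Ecm1, at 0.430 (0.397 to 0.466), while Ddr2 was 2.85-fold higher. In Tmem163/Kcnh1 cells 0 of the 4 chains reached 2-fold against Prox1/Kif26b cells, Col6a3 was at 0.716 (0.450 to 1.10), and Postn was at 0.0569 (0.0495 to 0.0650). Fn1 (0.390), Ctsk (0.321), the collagen-internalising receptor Mrc1 (0.173) and Sec16b (0.233, 0.0462 to 0.726, from 3 UMIs) were lower there too, and Ddr2 was 2.25-fold (1.36 to 3.68) higher. Within the Prrx1/Dpt cells, Scn7a/Sfrp2 cells were 3.11-fold (2.81 to 3.43) higher in Col4a4 than Prg4/Fmod cells, and lower in Col9a1, at 0.0946 (0.0405 to 0.189), Thbs1, at 0.117 (0.0951 to 0.143), and Itga10, at 0.254 (0.208 to 0.309). Col6a3 was at 0.839 (0.793 to 0.887), nearer to Col5a1 (0.816) than to either Col3a1 or Col5a2.

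The genes most like the 3 members summed were ranked over 2502 genes with at least 100 UMIs, leaving out those that set the groups. Over the 9 groups, on log2 of UMIs per 10000 plus 0.01, the 5 highest Pearson correlations included those of Mettl15 (0.992), Fam171a1 (0.985), Slc4a3 (0.982) and Ebf4 (0.980), where the median gene was at 0.0455. With 9 points that share libraries and depth, such values come easily. Across 3648 thinned Prrx1/Dpt cells the correlations were weak, at most 0.209, with Rin2 first, followed by Pamr1 (0.178), Pam (0.162), Kcnt2 (0.160) and Thbs1 (0.158). Ranked for each gene alone, a choice added after the values were seen, Scn7a came first for Col3a1 (0.178), Pmepa1 for Col5a1 (0.170) and Rin2 for Col5a2 (0.209), and Prg4 was among the first 5 for Col5a2 (0.162). Scn7a and Prg4 were not left out, although they set the subsets of Prrx1/Dpt cells above. Their correlations are therefore not observations separate from the levels in those subsets.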

How the data were processed

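Expression was analysed in 1 pooled matrix of mouse mitral valve cells, listed with 3 samples of mgR mice. The reads were processed by the authors with Cell Ranger (7.1.0) and mm10, per the submitters' processing notes. In Seurat they removed cells with fewer than 200 or more than 5000 genes or over 10% mitochondrial expression, and genes in fewer than 3 cells. What the authors deposited is on a natural log scale (UMIs scaled to 10000 in each cell, plus 1). From them, UMIs and totals were recovered as whole numbers within 0.02 in 100% of values. Of the 3264 genes used, 3244 matched GENCODE M21 by symbol. The gene with 11958 empty values was left out, and 0 columns of per-sample values were left unused. No model was fitted, since the pooled matrix holds no replicates and depth can be compared only between cells.

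Levels, ratios and their intervals (Poisson and binomial, 95%) were computed with Python 3.11.15, numpy 2.4.6, scipy 1.17.1 and pandas 2.3.3, and plots with matplotlib 3.10.9. Thinning to 2000 UMIs (random seed 1) left out 169 Prrx1/Dpt, 553 Egfl7 and 51 Ptprc cells. A gene counted as called at 2-fold with at least 20 UMIs over both groups. Doublets were not called, and cells with both kinds of marker were kept apart. The steps were tested on simulated data. The text names the 3 members, the listed collagen-related genes past 2-fold or largest in each direction, and the 5 genes most like the members over groups and over cells, of which 1 is not reported here. The members and lists were chosen with earlier results of these data known. Alternatives were other markers, marker minimums, depths, gene filters, folds and each barcode run.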

Additional observations from a re-analysis of the deposited data

How the results depend on the processing

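No paired analysis was possible because the barcodes carry no sample or replicate number, and for the same reason no library could be left out. Of 95 alternative values, 66 moved by less than the counting interval or, for counts of genes, by under 1.5 times, 29 moved further and 0 changed direction. Shares of cells and counts of genes cannot change direction, so only the ratios among these values could have done so. Some comparisons that turned in the second run were not among the 95. For Prrx1/Dpt cells with all 3 genes, observed over independent share was 1.16 in the first run and 0.915 in the second. Col3a1 in cells with Prrx1 and not Dpt, over cells with Dpt and not Prrx1, was 1.10 and 0.852. The ratio of Prrx1/Dpt to Egfl7 cells ranged from 4.74 to 7.26 for Col3a1, 9.55 to 13.4 for Col5a1 and 3.13 to 3.69 for Col5a2. The second barcode run alone gave 4.74, 11.4 and 3.13, and 1.52 for Col3a1 per Col5a2. Eng or Thbd in place of Egfl7 (Emcn was not analysed here) gave 6.60, 9.55 and 3.19. At least 2 marker UMIs gave 3.69 for Col5a2 and 1.90 for Col3a1 per Col5a2, and a mean over cells gave 6.44 for Col3a1. The cause was not tested. Shares of Prrx1/Dpt cells depend on depth by construction: for Col3a1, Col5a1, Col5a2 and all 3 together they were 32.6%, 28.0%, 51.7% and 5.86% at 1000 UMIs, 64.5%, 63.2%, 87.7% and 37.9% at 4000, and 71.9%, 71.6%, 89.5% and 50.3% without thinning. In the second run they were 34.0%, 33.7%, 64.8% and 6.80%. A 5-fold threshold called 277 genes higher and 154 lower in Prrx1/Dpt cells in place of 552 and 428. With Spearman in place of Pearson, 1 of the 5 genes most like the members over groups and 4 of 5 over cells were shared. Ptprc and second-run Tmem163/Kcnh1 values rest on few UMIs, and intervals say nothing of differences between mice.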

Other observations

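The 2738 cells with none of Prrx1, Dpt, Egfl7 and Ptprc were not empty of collagen transcripts. Col3a1 was at 1.52 per 10000 (1.46 to 1.59) in them, Col5a1 at 1.37 (1.30 to 1.43) and Col5a2 at 4.75 (4.64 to 4.88), with a median depth of 4228.5 UMIs. Their summed fibroblast markers stood at 1.64 and their summed endothelial markers at 6.99, against 12.7 and 1.53 in Prrx1/Dpt cells. These sums count Prrx1, Dpt and Egfl7. By definition Egfl7 is at 0 in Prrx1/Dpt cells, and all of them are at 0 in the cells with none of the 4 genes. The melanocyte marker Mlph was at 0.497 there, its highest level over the 9 groups, against 0.265 in Prrx1/Dpt cells and 0.0404 in Egfl7 cells. All 3 genes together were found in 5.03% (4.17 to 6.02) of the cells with none of the 4 genes after thinning, against 1.53% if detected independently. That independent share ignores differences between kinds of cell within the group. The 653 cells with markers of both kinds lay between the Prrx1/Dpt and Egfl7 cells in all 3 genes, with fibroblast markers at 6.94 and endothelial markers at 12.7. The last sums too count the markers that set the group.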
